A study of Homo sapiens with 11 samples.

Results

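The mitochondrial respiratory chain passes electrons from NADH and succinate to oxygen through complexes I to IV and uses the proton gradient that results to make ATP in complex V. Complex I (NADH dehydrogenase) holds core subunits that carry the redox centers and many accessory subunits around them, complex II (succinate dehydrogenase) is shared with the tricarboxylic acid cycle, complex III (cytochrome bc1) reduces cytochrome c, complex IV (cytochrome c oxidase) reduces oxygen, and complex V (ATP synthase) has a catalytic F1 head and a membrane part with a ring of c subunits. Most of the subunits are made from nuclear genes, while a few central ones are made from mitochondrial DNA, and breast and ovarian cancer cells use the chain beside glycolysis.

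The nuclear genes of the chain were described after transfection of the microRNA miR-365a-3p into cancer cell lines. The genes were chosen by symbol alone: SDHA to SDHD, NDUFA, NDUFB, NDUFC, NDUFS and NDUFV followed by a number, symbols that start with UQCR, COX4 to COX8, and ATP5 followed by a letter. This rule gave 87 of the 31325 gene symbols in the deposited table, and no measured value entered the choice. Of the 87 genes, 79 encode subunits of the complexes, with 36 in complex I, 4 in complex II, 7 in complex III, 17 in complex IV and 15 in complex V. The other 8 only share the naming pattern (COX4NB, now EMC8, and ATP5S and ATP5SL, now DMAC2L and DMAC2), belong to related genes (COX7A2L, NDUFA4L2) or are near-identical copies or pseudogenes (ATP5EP2, UQCRHL, COX6BP1). NDUFA4 was counted with complex IV, of which it is a subunit in spite of its name. No symbol of a mitochondrially encoded subunit was found in the table, so the part of the chain made from mitochondrial DNA was not analysed here.

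MDA-MB-231 is a human breast cancer line without estrogen receptor, and SKOV3 is a human ovarian cancer line. Each line received either miR-365a-3p or a control miRNA, with 3 arrays in each group except the SKOV3 controls with 2 arrays, 11 arrays in all. The labels of the miR-365a-3p arrays give 48 hour and those of the controls 48 with no unit, whereas the series' design text states 24 hours. SKOV3 is the name in the labels, the methods use its derivative SKOV3.ip1, and no label says that the replicates were separate cultures, so the p-values measure the spread between arrays, which may be technical. In the control arrays ERBB2 and EPCAM, which mark SKOV3, had a mean log2 signal of 10.86 and 10.36 in SKOV3 against 7.61 and 7.63 in MDA-MB-231, and ESR1 was 7.28 in MDA-MB-231. PAX8, KRT8 and KRT19 were also higher in SKOV3, but KRT18, listed for SKOV3 too, was not, with 7.90 in SKOV3 and 8.01 in MDA-MB-231. Of the 4 markers listed for MDA-MB-231 only CD44 was clearly higher there (11.26 against 10.47 in SKOV3), VIM was close (13.79 and 13.70), and CAV1 (12.07 and 12.36) and MSN (10.05 and 10.60) were higher in SKOV3, so this list did not set MDA-MB-231 apart.

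The transfected molecule is shown first, because the treatment is this sequence, while its level in the cells was not analysed here. In RefSeq on build GRCh38.p14 the mature miRNA lies at chr16:14309340-14309361 on the plus strand, and capitals mark the seed, bases 2 to 8, with which a miRNA pairs to its targets. The mature miR-365b-3p, from chr17:31575478-31575499 on the plus strand, has the same letters.
hsa-miR-365a-3p: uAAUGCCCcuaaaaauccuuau

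Each array gave 1 log2 signal per gene. A signal near 7.3 is the floor of these arrays, and genes whose mean over all arrays was 8 or less are called dim. There were 15 dim genes among the 87, and 6853 of all 31325 genes had a mean above 8. The arrays measured bulk RNA, in which fewer cells with an mRNA and less of it per cell cannot be told apart. A difference that involves values at the floor understates the difference in mRNA. A gene is said to have risen or fallen where the adjusted p of the limma fit over all genes was under 0.05, and differences are log2 fold changes of miR-365a-3p over control with their standard error (SE).

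After miR-365a-3p, most nuclear respiratory chain genes were higher than in the control arrays, with 75 of 87 log2 fold changes above 0 in MDA-MB-231 and 70 of 87 in SKOV3. Of all 31325 genes, 17259 were above 0 in MDA-MB-231 and 17464 in SKOV3. With a mean above 8, it was 64 and 59 of 72 chain genes, against 3945 and 4193 of all 6853 such genes. In MDA-MB-231, 52 of the 87 genes rose and 4 fell, where 14.4% of all genes rose and 11.7% fell. Since dim genes rarely pass the test, the brighter genes are the closer background: of the 72 chain genes with a mean above 8, 48 rose and 4 fell, where 39% of all genes above 8 rose and 26.2% fell. The median log2 fold change of these 72 genes was 0.62, against 0.17 for the 6853 genes above 8. In SKOV3, 22 of the 87 rose and 2 fell, where 7.25% of all genes rose and 7.11% fell. Among the 72 brighter genes 20 rose and 1 fell, where 23.4% of the genes above 8 rose and 15.3% fell, so the share of called rises in SKOV3 was near the background, while the median of 0.48 stood against 0.15. In both lines 21 chain genes rose and 1 fell, where 5.76% of all genes rose and 5.39% fell in both. Of the 72 brighter genes 19 rose and 1 fell in both, where 21% of the genes above 8 rose and 13.4% fell in both, so this share of rises was also near the background.

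The SKOV3 count depended on single arrays. With either of the 2 SKOV3 control arrays left out, 7 (without replicate 1) or 5 (without replicate 2) genes rose there. In MDA-MB-231 the count was 34 without miR-365a-3p replicate 1. In every other planned fit and scaling, leaving out each array included, 5 chain genes kept their rise in SKOV3 (COX7B2, NDUFB5, SDHB, UQCRB and UQCRC2) and 29 kept it in MDA-MB-231. A fold threshold, a block for the replicate number over all arrays and the covariate described further on were not part of this check. On the values as deposited, 42 of the 72 brighter chain genes rose and 4 fell in MDA-MB-231 (median 0.65), where 26.1% of the genes above 8 rose and 33.3% fell (median -0.05). In SKOV3 the deposited values gave 22 rises and 1 fall (median 0.48), where 15.1% rose and 19.3% fell (median -0.004). With cyclic loess 47 rose and 6 fell in MDA-MB-231 (median 0.58 against 0.15), and 16 rose and 1 fell in SKOV3 (median 0.43 against 0.13), where 36.9% and 20.7% of the genes above 8 rose.

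Single calls were lost in some fits. On the values as deposited, 11 of the 52 rises in MDA-MB-231 were not called (ATP5G1, ATP5G3, COX4NB, NDUFA7, NDUFA10, NDUFC1, NDUFC2, NDUFS7, NDUFV2, SDHC and UQCR), and 6 of the 22 in SKOV3 were not (ATP5S, COX4NB, NDUFB6, NDUFB8, NDUFC2 and UQCR). With cyclic loess ATP5EP2, COX6C and SDHD lost their SKOV3 call too. Of the 22 rises in SKOV3, 15 were lost without control replicate 1 and likewise without control replicate 2. The other 7 were ATP5F1, COX7B2, NDUFB3, NDUFB5, SDHB, UQCRB and UQCRC2. In MDA-MB-231 the rises of 6 genes (ATP5L, COX7C, NDUFS3, NDUFV2, SDHC and UQCRHL) were lost on leaving out any of at least 6 of the 11 arrays.

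**Figure D1:**
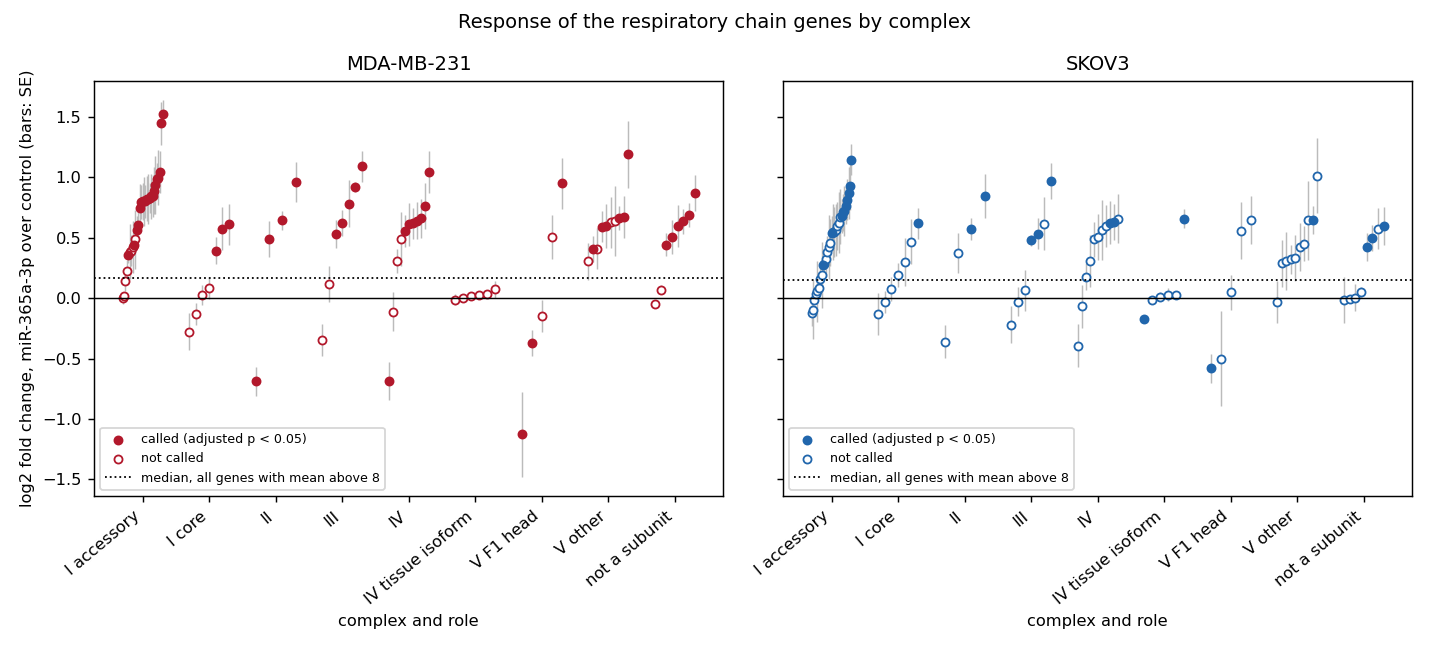
Log2 fold change (miR-365a-3p over control, vertical axis) of each of the 87 genes in MDA-MB-231 (left) and SKOV3 (right), grouped by complex and role, with the SE as bars, filled points for called genes and a dotted line at the median of the 6853 genes above 8. Most points lie above the line, the accessory subunits of complex I reach 1.53 in MDA-MB-231, and the lowest point is ATP5A1 in the F1 head.

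Among the accessory subunits of complex I, 21 of 29 rose in MDA-MB-231 and none fell, with a median of 0.80. Among its 7 core subunits, 3 rose, with a median of 0.08. In MDA-MB-231, 14.4% of all genes and 39% of the genes above 8 rose, so the core share was near the latter. The fallen genes of MDA-MB-231 were SDHA, COX5A, ATP5A1 and ATP5D, of which SDHA encodes the flavoprotein that oxidizes succinate, and ATP5A1 and ATP5D encode the alpha and delta subunits of the F1 head. No test compared the roles with each other.

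The promoters of the subunits were searched for letters of 3 factors known to bind near chain genes. The window was 250 bases before to 50 after the start of the gene in RefSeq on GRCh38.p14, and it was given for 64 of the 79 subunits. GCATGCGC, the core letters of the NRF1 motif, was found on either strand in 20.3% of these promoters and in 3.27% of all 27305 promoters of the reference table. CCGGAAG, the core of the motif of ETS factors such as GABP, was in 29.7% against 10.7%, and AAGATGGCG, the YY1 motif, in 12.5% against 1.85%. The reference table holds genes of all kinds, while the brighter genes of the arrays are the closer background. Of 6880 genes with a deposited mean above 8 only 4737 could be matched to a promoter, and NRF1 letters were in 6.33% of these, ETS letters in 23.1% and YY1 letters in 4.62%. Since under 80% were matched, this comparison is void and cannot say whether or how far the subunits exceed the brighter genes. A match of letters is a description and not a site. Of the 55 subunits with a promoter and a mean above 8, the 26 with any of the motifs had a median response (log2) of 0.62 in MDA-MB-231 and 0.48 in SKOV3, and the 29 without had 0.61 and 0.54, so the medians lay close together. In each group the number that rose in MDA-MB-231 was 19 and 16, and the number that fell 0 and 3. In SKOV3 the order was the other way, with 5 and 8 that rose and 0 that fell in each group.

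The promoters of 4 subunits show the range, with matched letters in capitals. SDHB, which rose in both lines, holds the letters of all 3 motifs, and SDHA, which fell in MDA-MB-231, holds none of these exact letters. Variants of the letters were not searched, so a promoter without a match may still hold a form of a motif. UQCRC2, the gene with the smallest adjusted p among the rises in MDA-MB-231, holds none, and UQCRH, which lay at the floor in SKOV3, holds the ETS letters on the reverse strand. The windows are chr1:17053983-17054282 on the minus strand, chr5:218070-218369, chr16:21953111-21953410 and chr1:46303448-46303747 on the plus strand.
SDHB: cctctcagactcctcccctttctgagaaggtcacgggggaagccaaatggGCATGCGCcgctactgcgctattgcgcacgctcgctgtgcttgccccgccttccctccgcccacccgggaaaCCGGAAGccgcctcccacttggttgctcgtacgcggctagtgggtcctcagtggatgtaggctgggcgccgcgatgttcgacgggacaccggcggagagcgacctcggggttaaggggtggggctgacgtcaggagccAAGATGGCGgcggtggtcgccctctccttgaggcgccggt
SDHA: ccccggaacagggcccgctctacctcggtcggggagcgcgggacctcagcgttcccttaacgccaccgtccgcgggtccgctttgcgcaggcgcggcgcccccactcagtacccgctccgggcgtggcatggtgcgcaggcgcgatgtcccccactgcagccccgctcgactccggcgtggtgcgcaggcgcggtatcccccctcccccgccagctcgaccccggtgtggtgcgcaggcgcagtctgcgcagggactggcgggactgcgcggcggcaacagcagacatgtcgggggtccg
UQCRC2: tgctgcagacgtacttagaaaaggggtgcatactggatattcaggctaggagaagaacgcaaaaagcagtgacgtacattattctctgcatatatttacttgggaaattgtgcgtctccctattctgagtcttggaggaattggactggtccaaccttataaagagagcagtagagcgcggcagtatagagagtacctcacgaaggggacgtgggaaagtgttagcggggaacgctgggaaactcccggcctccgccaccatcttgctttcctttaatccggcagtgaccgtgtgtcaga
UQCRH: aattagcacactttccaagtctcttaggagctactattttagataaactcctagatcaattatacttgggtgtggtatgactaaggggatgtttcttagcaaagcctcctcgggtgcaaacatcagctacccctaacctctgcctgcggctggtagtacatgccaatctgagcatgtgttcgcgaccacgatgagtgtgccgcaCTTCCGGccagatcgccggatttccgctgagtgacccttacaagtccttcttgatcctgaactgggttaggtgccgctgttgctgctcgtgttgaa

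In complex I, NDUFB5, an accessory subunit of the membrane arm, had the highest rise of the 87 genes in MDA-MB-231 and in SKOV3. Its log2 signal was 12.23, 12.26 and 12.07 in the miR-365a-3p arrays of MDA-MB-231 and 10.58, 10.91 and 10.49 in the controls. In SKOV3 it was 12.11, 12.25 and 11.95 against 10.99 and 10.91. The miR-365a-3p arrays lay above the controls without overlap in each line. The log2 fold change was 1.53 (SE 0.11, adjusted p = 4e-05) in MDA-MB-231 and 1.15 (SE 0.13, adjusted p = 0.000644) in SKOV3. NDUFA5, an accessory subunit of the peripheral arm, had 10.07, 9.62 and 9.36 against 8.24, 8.08 and 8.38 in MDA-MB-231, and 9.59, 9.15 and 9.45 against 8.43 and 8.51 in SKOV3. These groups did not overlap either, and the log2 fold change was 1.45 (SE 0.18) and 0.93 (SE 0.20), with an adjusted p of 0.000502 and 0.0152. In SKOV3 the call of NDUFA5 was lost without either control array, as for most rises there.

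Other accessory subunits called in both lines were NDUFS4 (0.99 in MDA-MB-231 and 0.68 in SKOV3), NDUFB6 (0.89 and 0.87), NDUFB8 (0.83 and 0.54), NDUFA6 (0.80 and 0.71), NDUFA12 (0.80 and 0.82), NDUFB3 (0.80 and 0.77) and the dim NDUFC2 (0.44 and 0.28). The values of NDUFC2 as deposited were 0.12 and 0.08 and were not called, and the SKOV3 call of NDUFB6 was also lost with cyclic loess (adjusted p = 0.0821) and with only the groups compared (adjusted p = 0.0601). In SKOV3, 9 of the 29 accessory subunits rose and none fell, with a median of 0.54. There 7.25% of all genes and 23.4% of the genes above 8 rose. The core subunits carry the flavin and the iron-sulfur clusters along which electrons travel. NDUFS3, one of them, was the only core subunit that rose in both lines, by 0.39 (SE 0.11) and 0.62 (SE 0.13). NDUFS7 and NDUFV2 rose in MDA-MB-231 by 0.61 and 0.58, calls that were lost under every other scaling. NDUFV1, which binds NADH and the flavin, and NDUFS8 were not called in either line, with 0.08 and -0.28 in MDA-MB-231 and 0.19 and -0.13 in SKOV3.

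Complex II has only 4 subunits, and its catalytic flavoprotein differed in sign from the rest. SDHA had 8.86, 9.15 and 9.14 in the miR-365a-3p arrays of MDA-MB-231 against 9.61, 9.86 and 9.74 in the controls, and 8.90, 8.65 and 9.10 against 9.27 and 9.22 in SKOV3. Every miR-365a-3p array lay below every control array of its line. SDHA fell by 0.69 in MDA-MB-231 (SE 0.12, adjusted p = 0.00312), and its log2 fold change of -0.36 in SKOV3 (SE 0.14) was not called (adjusted p = 0.133). SDHA has transcribed pseudogenes that a probe may also read.

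SDHB, the iron-sulfur subunit that takes the electrons on from SDHA, went the other way. It had 11.35, 11.32 and 11.19 against 10.71, 10.68 and 10.54 in MDA-MB-231, and 11.62, 11.30 and 11.41 against 10.90 and 10.84 in SKOV3. Again no array overlapped with the other group, and SDHB rose by 0.64 (SE 0.08, adjusted p = 0.000574) and by 0.57 (SE 0.09, adjusted p = 0.0037). SDHD and SDHC anchor the complex in the inner membrane. SDHD rose by 0.96 (SE 0.16) in MDA-MB-231 and by 0.85 (SE 0.18) in SKOV3, and SDHC rose by 0.49 (SE 0.15) in MDA-MB-231 but was not called in SKOV3, with 0.37 (SE 0.16, adjusted p = 0.206). The call of SDHC was lost on leaving out any of 8 of the 11 arrays, and its value was 0.16 (adjusted p = 0.586) as deposited. The SKOV3 call of SDHD was lost without either SKOV3 control array.

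**Figure D2:**
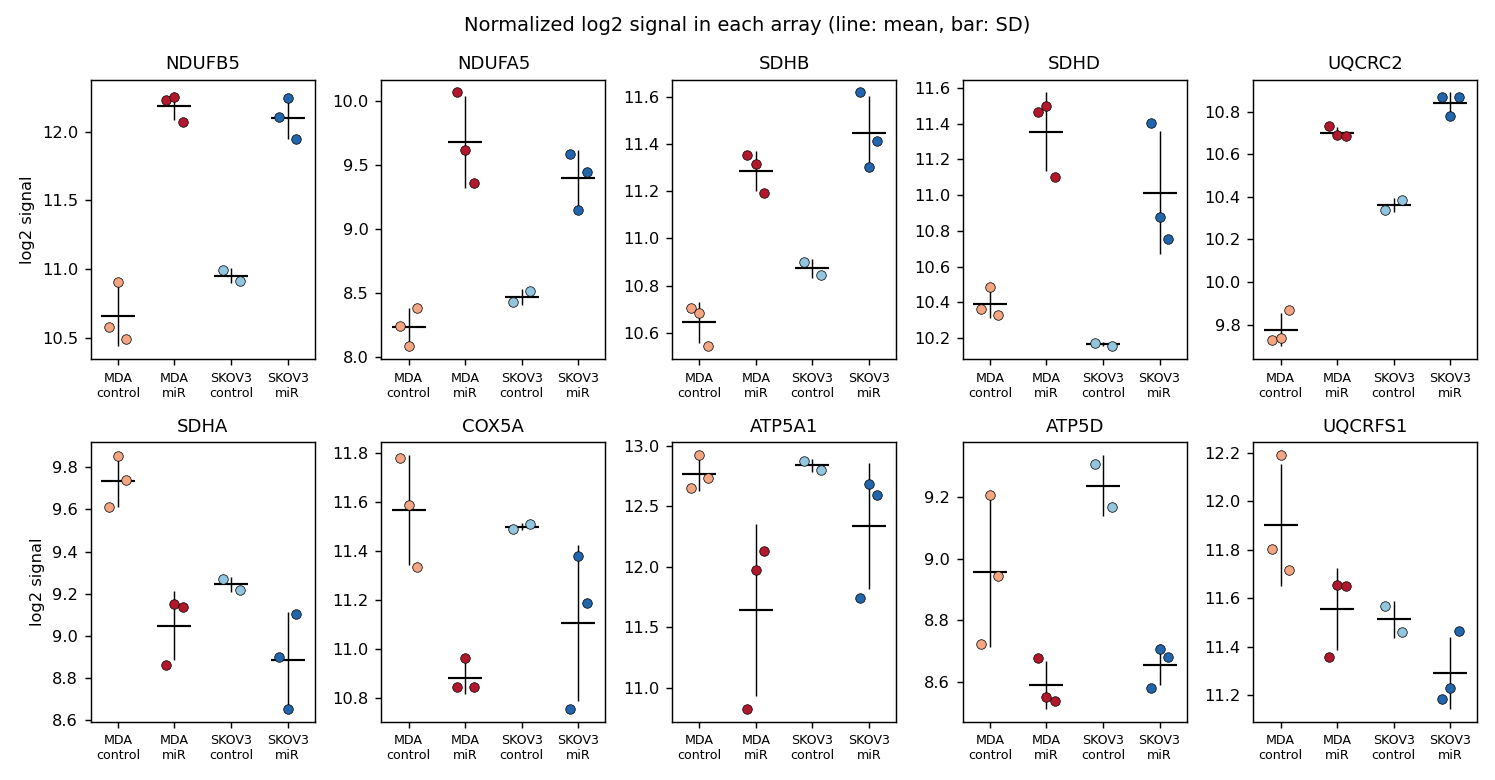
Normalized log2 signal (vertical axis, scaled per gene) of 10 genes in each array of the MDA-MB-231 and SKOV3 control and miR-365a-3p groups, with the mean as a horizontal line and the SD as a bar. The top row shows genes that rose in both lines. The bottom row shows SDHA, COX5A, ATP5A1, ATP5D and UQCRFS1, whose miR-365a-3p means are lower in each line. UQCRFS1 was not called in either line, and its arrays overlap in SKOV3.

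In complex III, UQCRC2, a core protein of the matrix side, had 10.73, 10.69 and 10.68 in the miR-365a-3p arrays of MDA-MB-231 against 9.73, 9.74 and 9.87 in the controls. In SKOV3 it had 10.87, 10.78 and 10.87 against 10.34 and 10.38. The replicates lay close together and the groups far apart, and UQCRC2 rose by 0.92 (SE 0.04, adjusted p = 4.21e-06) there and by 0.48 (SE 0.05, adjusted p = 0.000344) in SKOV3. UQCRB, a small subunit near the ubiquinone site, rose by 1.09 (SE 0.13) and 0.97 (SE 0.15), and the dim UQCR, now UQCR11, by 0.53 in each line. As deposited, UQCR had 0.21 (adjusted p = 0.117) and 0.31 (adjusted p = 0.0632) and was not called. UQCRQ and UQCRH rose in MDA-MB-231 by 0.78 and 0.63. UQCRC1, the other core protein, had 0.12 and 0.06 and was not called. UQCRFS1, the Rieske iron-sulfur protein that hands electrons to cytochrome c1, had -0.35 (SE 0.14, adjusted p = 0.106) in MDA-MB-231 and -0.22 (SE 0.15, adjusted p = 0.485) in SKOV3 and was not called. In MDA-MB-231 its 3 miR-365a-3p arrays, at 11.36, 11.66 and 11.65, lay below the controls at 11.80, 12.19 and 11.71.

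Complex IV has nuclear subunits around a mitochondrially encoded core, and several of them exist as a widespread form and a form restricted to certain tissues. Of the 10 widespread nuclear subunits, 6 rose and 1 fell in MDA-MB-231, and 1 rose and none fell in SKOV3. Of all genes above 8, 39% rose in MDA-MB-231 and 23.4% in SKOV3. COX5B rose by 1.04 (SE 0.17) in MDA-MB-231 and had 0.51 in SKOV3 (not called). COX6C rose by 0.66 and 0.63, and its SKOV3 call, with an adjusted p of 0.0487, was lost on leaving out any of 9 of the 11 arrays. NDUFA4 had 12.34, 12.32 and 12.23 against 11.99, 11.84 and 11.40 in MDA-MB-231, and rose by 0.56 (SE 0.13) there and by 0.63 (SE 0.15) in SKOV3.

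COX5A, a subunit on the matrix side, fell in MDA-MB-231. Its arrays stood at 10.85, 10.96 and 10.85 against 11.78, 11.59 and 11.33, a fall by 0.68 (SE 0.16, adjusted p = 0.0112). In SKOV3 it stood at 10.76, 11.38 and 11.19 against 11.49 and 11.51, all lower, but the log2 fold change of -0.39 was not called (adjusted p = 0.211). Among the widespread members of the isoform pairs, COX6A1, COX6B1 and COX7A2 rose in MDA-MB-231 by 0.76, 0.62 and 0.64, while COX4I1 had 0.31 and COX8A had -0.11, and none of these 5 was called in SKOV3, where COX6B1 and COX7A2 had an adjusted p of 0.0561 and 0.0516.

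Of the tissue-restricted forms, COX4I2, COX6A2, COX6B2, COX7A1 and COX8C were dim, with group means from 7.26 to 7.53, as was NDUFA4L2, a relative of NDUFA4. COX7A1, a heart and muscle form, fell by 0.17 (SE 0.03, adjusted p = 0.00798) in SKOV3, from 7.48 and 7.57 to 7.37, 7.32 and 7.38, which is within the floor of the arrays, where its SKOV3 values ranged from the 25.4th to the 68.5th percentile of all genes, and the call was lost without SKOV3 control replicate 2 (adjusted p = 0.0995). COX7B2 was the exception. It lay at the floor in all MDA-MB-231 arrays, from 7.20 to 7.38, and well above it in SKOV3, with 9.60 and 9.45 in the controls and 10.33, 10.04 and 10.17 after miR-365a-3p, a rise by 0.66 (SE 0.08, adjusted p = 0.000969). COX7B, the widespread form, had 0.49 and 0.57 and was not called.

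Complex V couples a catalytic head to a part in the membrane. Of the 5 subunits of the F1 head and central stalk, 1 rose and 2 fell in MDA-MB-231, and 1 fell in SKOV3. Of all genes above 8, 39% rose and 26.2% fell in MDA-MB-231, and 15.3% fell in SKOV3. ATP5D, the delta subunit of the central stalk and now named ATP5F1D, was the only chain gene that fell in both lines. It had 8.68, 8.55 and 8.54 against 8.72, 9.21 and 8.94 in MDA-MB-231, and 8.58, 8.71 and 8.68 against 9.31 and 9.17 in SKOV3. No array overlapped with the other group, although MDA-MB-231 control replicate 1 was close to the treated arrays. ATP5D fell by 0.37 (SE 0.11, adjusted p = 0.0348) and by 0.58 (SE 0.12, adjusted p = 0.0131), and the first call was lost on leaving out any of 6 of the 11 arrays (adjusted p up to 0.1), the second without either SKOV3 control array (adjusted p = 0.114 and 0.0591).

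ATP5A1, the alpha subunit and now named ATP5F1A, varied most between replicates. In MDA-MB-231 it had 10.82, 11.98 and 12.13 after miR-365a-3p against 12.65, 12.92 and 12.73, and in SKOV3 11.74, 12.69 and 12.59 against 12.88 and 12.80. Replicate 1 of each miR-365a-3p group stood far below the other 2, yet all treated arrays were below their controls. ATP5A1 fell by 1.13 in MDA-MB-231 (SE 0.35, adjusted p = 0.0452), a call that was lost without miR-365a-3p replicate 1 (-0.71, adjusted p = 0.0925) and on leaving out any of 8 of the 11 arrays. As deposited its value was -0.95 and was not called (adjusted p = 0.0947). It had -0.50 (SE 0.39, adjusted p = 0.565) in SKOV3. ATP5B, the catalytic beta subunit, had -0.15 and 0.05 and was not called, and ATP5E, the epsilon subunit, rose by 0.95 (SE 0.21) in MDA-MB-231.

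The stalk that holds the head still and the membrane part went up where they were called. ATP5F1, the b subunit of the peripheral stalk and now ATP5PB, had 12.26, 12.34 and 12.24 against 11.41, 11.84 and 11.62 in MDA-MB-231, and from 11.91 to 12.14 in the 3 treated arrays against 11.41 and 11.33 in SKOV3. It rose by 0.66 (SE 0.10, adjusted p = 0.00145) and by 0.65 (SE 0.11, adjusted p = 0.00571), the only gene of complex V that rose in both lines. The c ring, which turns with the proton flow, is made from 3 genes for the same mature protein. ATP5G1 rose by 0.68 and the dim ATP5G3 by 0.41 in MDA-MB-231, ATP5G2 had 0.30 there, and in SKOV3 they had 0.29, 0.32 and -0.03, none of which was called. As deposited ATP5G1 had 0.42 (adjusted p = 0.107) and ATP5G3 had 0.07 (adjusted p = 0.641) in MDA-MB-231, so that no c ring gene was called there. ATP5I, the e subunit, rose by 1.19 (SE 0.28) in MDA-MB-231 and had 1.01 (SE 0.31, adjusted p = 0.0634) in SKOV3.

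Among the 8 genes that matched only the naming pattern, 6 rose in MDA-MB-231 and 3 in SKOV3. Rises were called for 14.4% and 7.25% of all genes and for 39% and 23.4% of those above 8. ATP5S rose by 0.69 and 0.42, COX4NB by 0.44 and 0.50, and ATP5EP2 by 0.51 and 0.60. ATP5EP2 is a near-identical copy of ATP5E, so a probe may not tell them apart, and these values are uncertain. As deposited, COX4NB had 0.07 (adjusted p = 0.638) and 0.23 (adjusted p = 0.135) and was not called in either line, and ATP5S had 0.34 (adjusted p = 0.0302) and 0.18 (adjusted p = 0.342). In SKOV3 the calls of all 3 were lost without either control array.

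**Figure D3:**
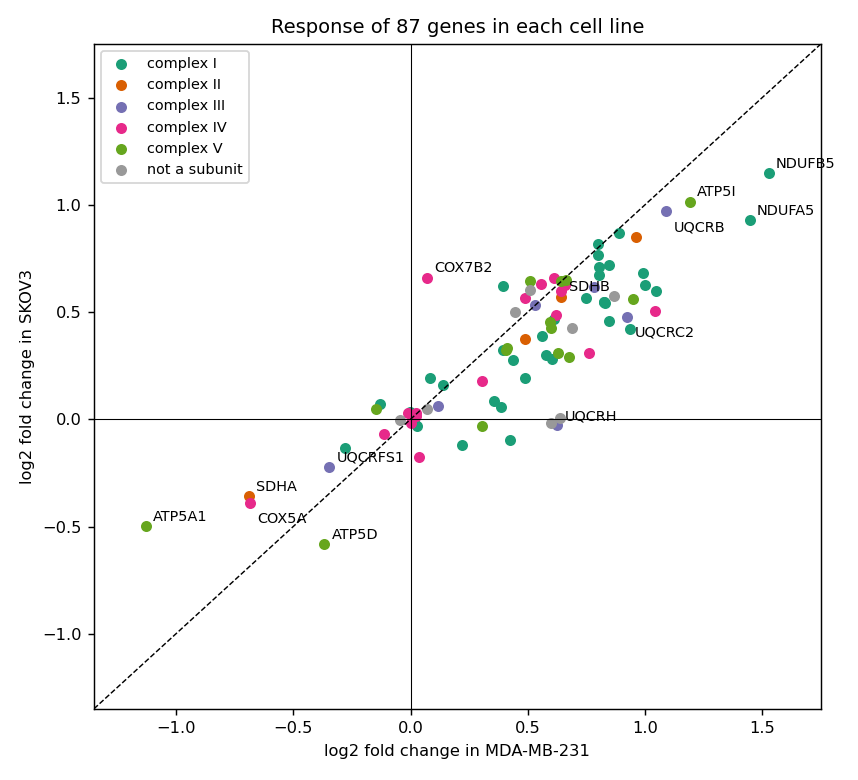
Log2 fold change of the 87 genes in MDA-MB-231 (horizontal axis) and SKOV3 (vertical axis), colored by complex, with the dashed line where they are equal. NDUFB5 lies at 1.53 and 1.15, SDHA, COX5A, ATP5A1, ATP5D and UQCRFS1 lie below 0 on both axes, and COX7B2 and UQCRH lie near 0 on one axis only.

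The difference between the responses of the lines was tested by itself, as the MDA-MB-231 response minus the SKOV3 response. It was called for 3 chain genes, where 2.54% of all genes were called. UQCRC2 responded more in MDA-MB-231, by 0.45 (SE 0.06, adjusted p = 0.00782), from lower control values to about the same treated level, with treated group means of 10.70 and 10.84. Without SKOV3 control replicate 2 the adjusted p was 0.0556, and with a trend of the variance on intensity it was 0.323. COX7B2 responded more in SKOV3 (-0.59, SE 0.11, adjusted p = 0.0266), where MDA-MB-231 was at the floor, and this call was lost under the other scalings, with the intensity trend and on leaving out any of 8 of the 11 arrays. COX7A1 (0.21, SE 0.04, adjusted p = 0.0459) was at the floor in MDA-MB-231, and its call was lost on leaving out any array. The other 84 genes were not called for the difference. These include genes called in only one line, so their responses were not shown to differ.

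Without miR-365a-3p the lines already differed in parts of the chain. Between the control groups, which also enter the responses above, 7 of the 87 genes were higher in MDA-MB-231 and 13 were lower, where 7.76% and 8.34% of all genes were. Among the 72 brighter genes 6 were higher and 12 lower, where 20% and 19.2% of the genes above 8 were, so the shares lay below or near the background. UQCRH, the hinge protein of complex III, had 11.38, 11.27 and 10.93 in the MDA-MB-231 controls but 7.36 and 7.37 in the SKOV3 controls. The difference was 3.83 (SE 0.12, adjusted p = 2.76e-07), and in all 5 SKOV3 arrays UQCRH lay between the 28.6th and the 49.8th percentile of all genes, that is at the floor. The near-identical copy UQCRHL showed the same split, with a difference of 4.27 (SE 0.19), and whether its probe reads UQCRH is not stated in the sources used here. After miR-365a-3p UQCRH stayed between 7.32 and 7.36 in SKOV3.

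COX7B2 was the largest difference in the other direction, at -2.26 (SE 0.08, adjusted p = 5.35e-07). In complex I the accessory subunits NDUFB9 (-1.58), NDUFB10 (-1.30), NDUFA11 (-1.24), NDUFA8 (-0.89), NDUFS5 (-0.87) and NDUFB2 (-0.82) were lower in MDA-MB-231. The accessory subunits NDUFB6 (0.98), NDUFA9 (0.70) and NDUFB8 (0.58) and the dim core subunit NDUFS1 (0.35) were higher there. NDUFB10 had 9.85, 9.97 and 9.55 in MDA-MB-231 and 11.13 and 11.05 in SKOV3, and NDUFB9 had 9.10, 9.47 and 8.85 against 10.73 and 10.72. Lower in MDA-MB-231 were also COX5B (-0.86), UQCRQ (-0.85), ATP5J, a peripheral stalk subunit (-0.78), COX6B1 (-0.59), UQCRC2 (-0.58) and the floor-level COX7A1 (-0.27). SDHA was higher by 0.49 in MDA-MB-231 (adjusted p = 0.0398), a call that was lost on the values as deposited (adjusted p = 0.211), as were those of NDUFA9 and NDUFB8. Without either of the SKOV3 control arrays 5 of the 7 higher genes (NDUFA9, NDUFB6, NDUFB8, NDUFS1 and SDHA) and 6 of the 13 lower genes (ATP5J, COX5B, COX6B1, NDUFB2, NDUFS5 and UQCRQ) were no longer called.

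**Figure D4:**
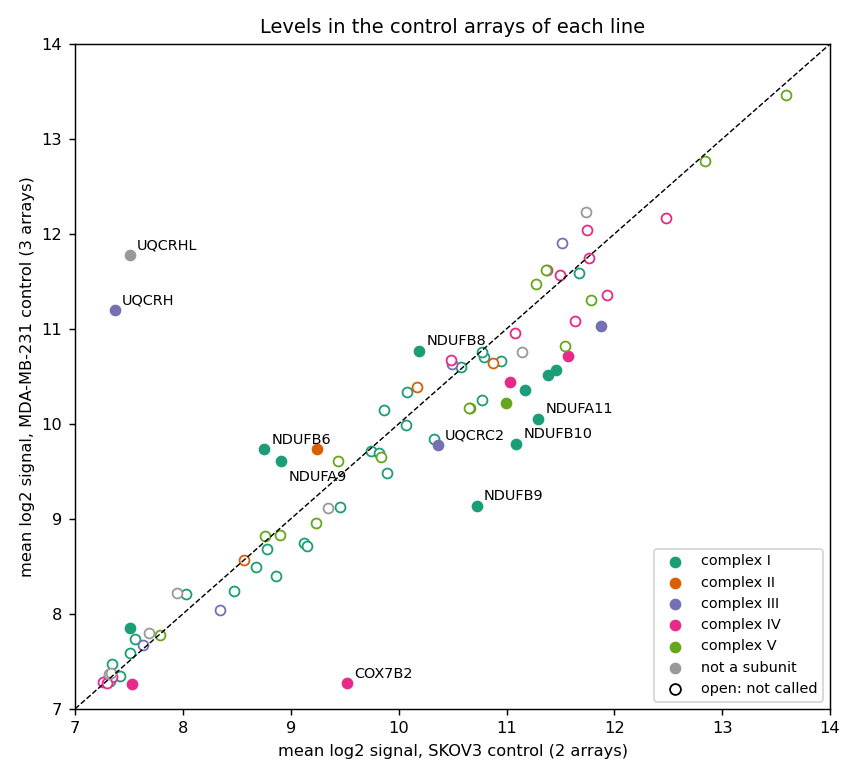
Mean log2 signal of the 87 genes in the control arrays of SKOV3 (horizontal axis, 2 arrays) and MDA-MB-231 (vertical axis, 3 arrays), colored by complex and filled where the difference was called, with a dashed line of equality. UQCRH and UQCRHL stand above the line by 3.83 and 4.27, and COX7B2 stands below it, at -2.26.

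The chain genes were also followed from array to array, as the median over the 66 subunits with a mean above 8 of the deviation from the control mean of the line. The 3 miR-365a-3p arrays of MDA-MB-231 stood at 0.78, 0.57 and 0.55 and those of SKOV3 at 0.63, 0.26 and 0.54. The controls stood at 0.11, 0.08 and -0.23 in MDA-MB-231 and at 0.02 and -0.02 in SKOV3. MDA-MB-231 control replicate 3 was the low control, with 11 of 66 subunits above the control mean, and SKOV3 miR-365a-3p replicate 2 was the low treated array. For all genes above 8 the same measure was 0.13 to 0.18 in the treated arrays.

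Other gene families moved on the same arrays. Of 70 mitochondrial ribosomal protein genes above 8, which make the ribosomes that translate the mitochondrially encoded subunits, 56 rose and 2 fell in MDA-MB-231 (median 0.75) and 35 rose and 1 fell in SKOV3 (median 0.59). Of 80 cytosolic ribosomal protein genes 29 rose and 3 fell in MDA-MB-231 (median 0.27) and 17 rose and 2 fell in SKOV3 (median 0.22). Of 35 proteasome subunit genes 16 rose and 4 fell in MDA-MB-231 (median 0.37) and 11 rose and 1 fell in SKOV3 (median 0.28). Of the genes above 8, 39% rose in MDA-MB-231 and 23.4% in SKOV3. The share of rises among the cytosolic ribosomal protein genes was near this background in each line. Among the mitochondrial ribosomal protein genes the share was above the background in each line, and among the 35 proteasome genes only somewhat above it. These shares were not tested. Of 16 genes for large proteins such as myosins, laminins and collagens none rose and 15 fell in MDA-MB-231 (median -1.63), and 11 fell in SKOV3 (median -1.32). The balance of ribosomal over large protein genes, as the difference of their median deviations, was 1.80 to 2.07 in the treated arrays of MDA-MB-231 and 1.08 to 1.72 in those of SKOV3, and -0.22 to 0.08 in all controls. The covariate fitted was the difference of the median signals of the same families on each array, not of their deviations, so it also carries differences between the lines. With this covariate no chain gene was called in either line, nor was any of the 31325 genes in MDA-MB-231, and 6 were in SKOV3. The balance and the treatment cannot be told apart with these arrays.

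Genes that work with the chain were counted in lists, which hold dim genes too. Rises were called for 14.4% of all genes and 39% of the genes above 8 in MDA-MB-231, and for 7.25% and 23.4% in SKOV3, and falls for 11.7% and 26.2% and for 7.11% and 15.3%. Of 14 symbols for assembly factors of complex I, which insert its cofactors and join its parts, 11 rose and 2 fell in MDA-MB-231 and 9 rose and 1 fell in SKOV3. TMEM126B, a membrane arm assembly factor, rose by 1.14 (SE 0.12) and 0.83 (SE 0.13), and NUBPL, which delivers iron-sulfur clusters, fell by 1.49 (SE 0.24) and by 1.93 (SE 0.27). Of 23 symbols for assembly factors of complexes II to V, 16 rose and 3 fell in MDA-MB-231 and 9 rose and 1 fell in SKOV3. SCO2, a copper chaperone of complex IV, rose by 0.93 and 0.87, a SKOV3 call that was lost under every other scaling and on leaving out any of 7 of the 11 arrays, and LRPPRC, which stabilizes mitochondrial mRNAs, fell by 0.99 in MDA-MB-231 and had -0.27 in SKOV3 (not called).

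A list of 9 genes outside the symbol rule held chain proteins and, beside them, ETFA, ETFB, ETFDH and ATPIF1, which are no subunits of the complexes. Of these 9 genes 6 rose in MDA-MB-231 and 2 in SKOV3, and none fell. C14orf2, now ATP5MJ, rose by 0.69 and 0.80, and the dim USMG5, now ATP5MK, by 0.42 and 0.63, both small ATP synthase subunits. As deposited C14orf2 was not called in either line (adjusted p = 0.0628 and 0.0636). CYC1, cytochrome c1 of complex III, rose by 0.48 in MDA-MB-231 and had 0.29 in SKOV3 (not called), and CYCS, cytochrome c, was dim. Of 16 regulators of respiratory chain transcription 6 rose and 3 fell in MDA-MB-231 and 4 rose and 2 fell in SKOV3. Since 8 of these 16 were dim, neither the share over all genes nor that over the genes above 8 is a like background. TFAM, which packs and transcribes mitochondrial DNA, had 11.76, 11.85 and 11.72 against 10.67, 10.57 and 10.54 in MDA-MB-231, and 10.66, 10.18 and 10.25 against 9.30 and 9.22 in SKOV3. Its arrays were apart in each line, and it rose by 1.18 (SE 0.11) and 1.11 (SE 0.12). C17orf42, now TEFM, an elongation factor of mitochondrial transcription, rose by 1.15 and 0.95, the second lost without either SKOV3 control array. In the other direction, and named after their values were seen, the dim PPRC1, a coactivator of chain gene transcription, fell by 1.14 and by 0.42, and GABPB2, a subunit of the ETS factor GABP, fell by 1.00 and by 0.87, with the SKOV3 calls of both lost without either SKOV3 control array. NRF1, a transcription factor of many chain genes, was dim, with a mean of 7.37. Of 13 tricarboxylic acid cycle enzymes 4 rose and 4 fell in MDA-MB-231 and 4 rose and 3 fell in SKOV3. CS, citrate synthase, had 7.53, 7.72 and 7.65 against 9.58, 9.33 and 9.77 in MDA-MB-231 and 7.69, 8.25 and 7.92 against 9.93 and 9.99 in SKOV3, a fall by 1.93 (SE 0.15) and by 2.00 (SE 0.16), while SUCLA2, a succinyl-CoA synthetase subunit, rose by 1.02 and 0.89.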

How the data were processed

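Illumina HumanHT-12 BeadChips were hybridized with cRNA that carried biotin. Quantile normalization in lumi is the step the authors name, and they deposited 1 value on a log2 scale per gene symbol and array. Log2 or variance-stabilizing transformation, background correction and the rule that combined probes are not given in the sources used here. The table has no detection values, so precision rests on how many arrays each group has.

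The deposited columns did not share a distribution, with 75th percentiles from 7.56 to 8.04, and quantile normalization over all 11 arrays was applied (limma 3.58.1, R 4.3.3). Group means were fitted to all 31325 genes with lmFit and eBayes (4 groups), with Benjamini-Hochberg adjustment over all genes and a threshold of 0.05. Of the 87 symbols, 64 were current and 22 matched a single older symbol of the GRCh38.p14 gene table, used for names only. Named genes were, per complex, the 3 largest rises and 2 largest falls called in both lines, members that fell in either line or differed between lines (8 at most), the 2 largest called differences between controls, complex II, the c ring, isoform pairs, and in the other lists the 2 largest called changes and CYCS, CYC1, TFAM and NRF1. Further members were named after their values were seen, to describe each complex. The members, gene lists and the families of ribosomal, proteasome and large proteins were chosen with earlier results of these data known. Several genes in the assembly factor lists stand under 2 symbols. The fit was checked on simulated data. Within a cell line, same-numbered arrays did not deviate together (correlations from -0.12 to 0.23), so replicate numbers were not taken as pairs. Across the lines the same-numbered miR-365a-3p arrays did deviate together (0.70, 0.31 and 0.34), while the control arrays did not (0.12 and -0.13). A block over all arrays was therefore added after seeing the data. Differently numbered miR-365a-3p arrays had correlations from -0.74 to 0.64 across the lines, the highest for MDA-MB-231 replicate 3 with SKOV3 replicate 2. Whether the replicate numbers mark shared batches was not tested. A comparison with protein length was not made, since no protein table was used here. Promoters were read with pandas 2.3.3, and figures were drawn with matplotlib 3.10.9.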

Additional observations from a re-analysis of the deposited data

Results flagged for a closer look

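Results are listed here because the response to miR-365a-3p differed between the cell lines. For 3 genes the test of the difference itself, the MDA-MB-231 response minus the SKOV3 response in the limma fit, passed the threshold. UQCRC2 had a difference of 0.45 (adjusted p = 0.00782), with every treated array above every control array in each line. COX7B2 had -0.59 (adjusted p = 0.0266), with MDA-MB-231 at the floor of the arrays. COX7A1 had 0.21 (adjusted p = 0.0459), with values near the floor in each line. UQCRH is listed because its 3 treated arrays lay above the controls in MDA-MB-231 and below them in SKOV3, with a difference of 0.65, but the test did not pass the threshold (adjusted p = 0.0882), and its SKOV3 values were at the floor.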

How the results depend on the processing

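No called value of a named gene changed its sign while called in any other fit, the balance covariate apart. Of 3806 such values over all alternatives 3391 kept sign and side of the threshold, 219 were no longer called, 62 were newly called, and 134 that were called under neither setting changed sign. In MDA-MB-231 the 52 rises became 34 to 53 and the 4 falls 2 to 4 with 1 array left out, and 2 falls remained when only the groups compared entered the fit. In SKOV3 the 22 rises became 5 to 33 and the 2 falls 0 to 3, the lowest without SKOV3 control replicate 2, and 1 fall was called with only the groups compared, with only genes above the median signal, or with a minimum log2 change of 0.5 in size. Without either SKOV3 control array the other one is assumed to vary like the other groups. The 2 positive differences between lines became 0 to 5 and the 1 negative difference 0 to 1 with 1 array left out. The positive count was 1 with only genes above the median signal or with the intensity trend, and 0 with the fold threshold, and the negative count was 0 for deposited, median-centred or cyclic loess values and with the trend. Between controls the 7 higher genes became 2 to 8 and the 13 lower genes 6 to 16. With the replicate number as a block within each cell line, 50 rises and 2 falls were called in MDA-MB-231, 17 and 1 in SKOV3, and 0 differences between lines in either direction (UQCRC2 adjusted p = 0.137, COX7B2 0.0811, COX7A1 0.267). With the block over all arrays 6 genes were higher and 11 lower between controls, 52 rose and 3 fell in MDA-MB-231, 31 rose and 2 fell in SKOV3, and 1 positive and 1 negative difference between lines was called (UQCRC2 and COX7B2, with COX7A1 lost at adjusted p = 0.118). The balance covariate, chosen after seeing the data, left 0 rises and 0 falls in each line, 1 positive difference between lines and 22 lower genes between controls. It raised the median standard error over all genes from 0.036 to 0.14 in MDA-MB-231, and 35 of the 56 called genes there and 12 of 24 in SKOV3 changed sign without being called, so it cannot tell treatment from balance. Values at the floor limit what can be said of the dim genes.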
